A study of Mus musculus with 4 samples.

Results

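The G1 cyclins and the inhibitors of cyclin-dependent kinases (CDKs) decide whether a cell leaves G1 and starts to copy its DNA. They are described here in AML12 cells, a mouse hepatocyte line, with and without a hairpin against Safb, the gene of the nuclear matrix protein scaffold attachment factor B. The genes were chosen by name: the D cyclins Ccnd1, Ccnd2 and Ccnd3, the E cyclins Ccne1 and Ccne2, the Cip/Kip inhibitors Cdkn1a, Cdkn1b and Cdkn1c, and the INK4 family genes Cdkn2a and Cdkn2c. Each of the 10 symbols was found on 1 row of a table of 52192 distinct gene identifiers, and all 10 passed the filter on low values, a mean of at least 1 TPM over the libraries. TPM, a transcript abundance unit, is corrected for gene length and set to a fixed total in each library, so levels of different genes can be compared, while the sequencing depth is not kept and is unknown.

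The 2 shSafb libraries came from cells given a lentivirus with a hairpin against Safb, and the 2 shCtrl libraries from cells given a control hairpin virus. Both groups were grown with 10% serum and 0.1 µM dexamethasone, a glucocorticoid, received 200 µl of concentrated virus, had their medium changed at 24 h, and were harvested on day 5. The hairpin sequences and their number are not stated in the labels. Nor do the labels say that libraries of a group were grown apart, so every p-value below is against a spread that may be technical. AML12 was derived from a mouse carrying a transforming growth factor alpha transgene, and its G1 genes are those of an immortal line under growth factor drive, not of resting liver.

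In textbook terms, D cyclins pair with CDK4 and CDK6 in response to growth signals and begin to phosphorylate the retinoblastoma protein RB, which holds back E2F transcription factors. Released E2F switches on E cyclins, which pair with CDK2 and carry the cell into S phase. INK4 proteins bind CDK4 and CDK6 and keep D cyclins off. Cip/Kip proteins bind the whole cyclin and CDK complex, and inhibit CDK2 most strongly.

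Safb stood at 15.8 and 15.02 TPM in the shSafb libraries and at 23.8 and 23.3 TPM in the shCtrl libraries (1.53-fold lower; limma adjusted p = 0.00411). The related gene Safb2 had 31.0 and 37.4 TPM in shSafb against 27.1 and 26.4 TPM in shCtrl (limma adjusted p = 0.0435). Its log2 change was 0.36, with 0.24 without shSafb replicate 2 and 0.50 without shSafb replicate 1. All 13 hepatocyte markers passed the filter, 4 of them higher and 3 lower in shSafb. Of all tested genes, 21.9% were higher and 22.4% lower (44.3% in either direction). The markers summed to 13944 to 14096 TPM in shSafb and 9899 to 10081 TPM in shCtrl. The higher sum came from Trf (transferrin): the other 12 markers summed to 7282 and 7166 TPM in shSafb, against 7628 and 7481 TPM in shCtrl. Alb (albumin) fell, with 122 and 127 TPM in shSafb against 378 and 345 TPM in shCtrl, and Apoa1 fell, with 28.2 and 28.1 TPM in shSafb against 56.4 and 56.4 TPM in shCtrl. Of 7 endothelial markers all were under 1 TPM in every library, and the sums were 2.92 to 3.48 TPM in shSafb and 3.04 to 3.09 TPM in shCtrl for 10 fibroblast and stellate cell markers, and 2.83 to 3.15 TPM in shSafb and 1.63 to 2.29 TPM in shCtrl for 8 leukocyte markers. Csf1r was the leukocyte marker called, higher at 1.92 and 1.72 TPM in shSafb against 0.239 and 0.450 TPM in shCtrl (limma adjusted p = 0.00852). It passed the filter only through the shSafb group and fell below it without either shSafb library, so nothing is drawn from its call. The other 7 leukocyte markers summed to 0.915 and 1.43 TPM in shSafb, against 1.39 and 1.84 TPM in shCtrl. Adgre1, Clec4f and Cd3e among the leukocyte markers, Lum and Lrat among the stromal ones and Cdh5, Kdr and Lyve1 among the endothelial ones were at 0 in every library. Of 5 cholangiocyte markers tested 1 was higher and 3 lower, against the same 21.9% and 22.4% of all tested genes. Their sums were 1514 to 1579 TPM in shSafb and 1642 to 1676 TPM in shCtrl, while Epcam was at 0 in 3 of 4 libraries. Krt19 rose, with 676 and 679 TPM in shSafb against 319.9 and 320.1 TPM in shCtrl, and Spp1 fell, with 609.7 and 671 TPM in shSafb against 1108 and 1101 TPM in shCtrl. Sox9 and Cftr were also lower (limma adjusted p = 0.0271 and 0.0212). Cftr averaged 0.694 TPM in shSafb and 1.68 TPM in shCtrl, so it passed the filter only through the shCtrl group. The Cftr call was lost without any 1 library (0.0687 to 0.0932), and the Sox9 call without shCtrl replicate 1 (0.0614), shSafb replicate 1 (0.111) or shSafb replicate 2 (0.0669). The part of these markers in the results below was not tested, and in bulk RNA fewer cells in a state and less RNA per cell cannot be told apart.

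Of the 10 genes, 2 were higher and 3 lower in shSafb by limma with a Benjamini-Hochberg adjusted p under 0.05, against 21.9% higher and 22.4% lower (44.3% in either direction) of the 13111 genes tested. The called share of the set is close to that background, and the count itself is no result about these genes. Ccnd1, Ccnd2 and Cdkn1b fell, and Ccne2 and Cdkn2c rose. The calls of Ccne2, Cdkn1b and Cdkn2c each rest on single libraries and were lost in some fits with 1 library left out. Which genes were called higher also changed with the library left out. Without shSafb replicate 2 neither Ccne2 nor Cdkn2c was called, but Ccnd3, which had no stable direction, was. The values of the 2 groups did not overlap for 3 genes that were higher and 5 that were lower, where 35.5% and 39.3% of all tested genes (74.7% together) were separated in that way. When a fold of 1.5 or more was asked for as well, Ccne2 and Cdkn2c stayed higher and Ccnd2 stayed lower, against 9.94% higher and 10.7% lower of all tested genes. Ccne2 and Cdkn2c passed that limit narrowly, both with a log2 change of 0.59 against a limit of 0.585.

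**Figure D1:**
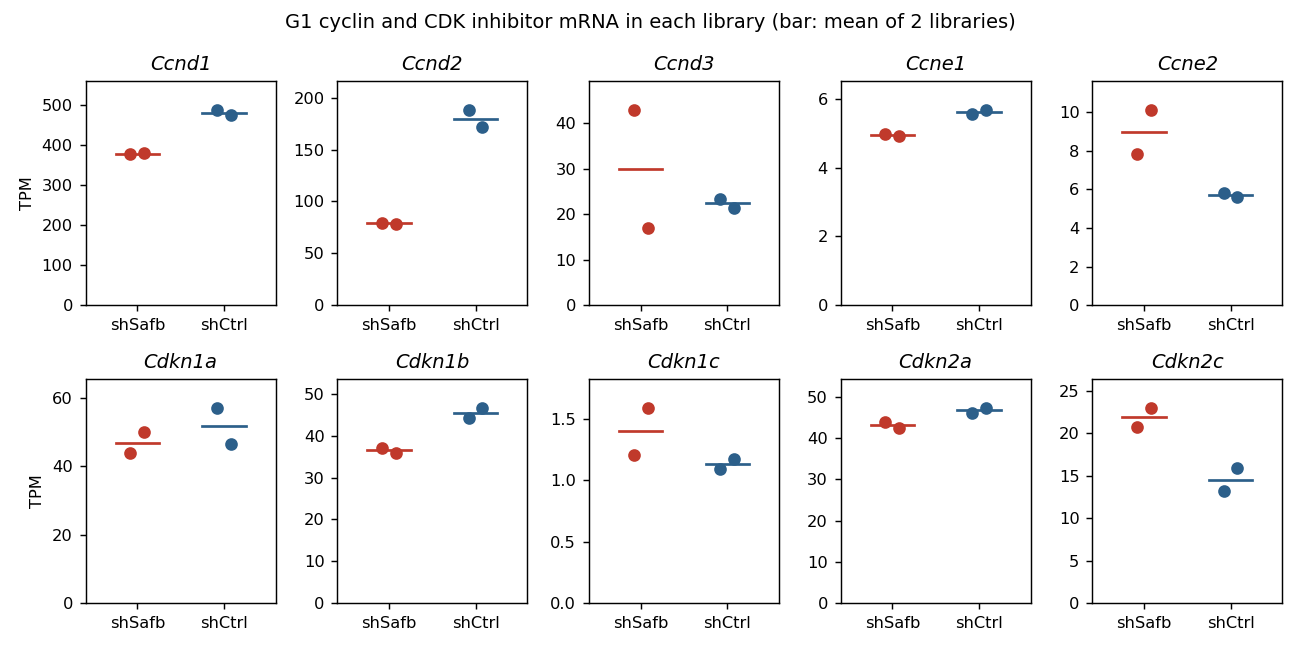
TPM of each gene in every library, with 1 panel per gene, shSafb at the left and shCtrl at the right of each panel, points for libraries and bars for the mean of 2 libraries; each vertical axis starts at 0 and has its own scale. The shSafb points of Ccnd1, Ccnd2 and Cdkn1b lie below both shCtrl points, those of Ccne2 and Cdkn2c lie above them, and the 2 shSafb points of Ccnd3 lie on either side of shCtrl.

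Ccnd1, which encodes cyclin D1, the main D cyclin of the regenerating liver, was among the most abundant mRNAs of the cells. It had 377 and 379 TPM in the shSafb libraries, against 486 and 474 TPM in the shCtrl libraries. Between 249 and 261 of the tested genes stood above it in a shSafb library, and 201 to 204 in a shCtrl library. The shSafb values were nearly the same as each other and both lay below the shCtrl values. Its log2 change was -0.32 ± 0.04 (SE; 1.27-fold lower; limma adjusted p = 0.00374). The gene (ENSMUSG00000070348) lies on chromosome 7 from 144929931 to 144939925 of mm10, minus strand, and shares 1771 bases with LTO1 on the opposite strand, which stood at 14.1 and 12.9 TPM in shSafb and 16.9 and 17.9 TPM in shCtrl.

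Ccnd2, which encodes cyclin D2, changed the most of the 10 genes. It had 79.1 and 78.5 TPM in the shSafb libraries, against 188 and 171 TPM in the shCtrl libraries. The groups were far apart compared with the spread inside either of them. The log2 change was -1.15 ± 0.05 (SE; 2.28-fold lower; limma adjusted p = 6.14e-04). Between 1529 and 1540 tested genes stood above Ccnd2 in shSafb, against 590 to 651 in shCtrl. The gene (ENSMUSG00000000184) lies on chromosome 6 from 127125162 to 127152193, minus strand, and its antisense neighbours Gm43126 and 9330179D12Rik were each under 0.151 TPM in every library. The calls of Ccnd1 and Ccnd2 were kept in all 14 alternative settings in which their change was refitted.

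Ccnd3, which encodes cyclin D3, had no stable direction. It had 42.8 and 16.9 TPM in the shSafb libraries, against 23.4 and 21.4 TPM in the shCtrl libraries. One shSafb library was above both shCtrl libraries and the other below both, so the groups overlapped. The log2 change was 0.28 ± 0.43 (SE; limma adjusted p = 0.628). It was 0.94 without shSafb replicate 2 (adjusted p = 0.00922) and -0.36 without shSafb replicate 1 (adjusted p = 0.0617), so each reading rests on 1 library. In such a fit the lone shSafb library is assumed to vary like the shCtrl libraries, which the 2 shSafb values of Ccnd3 do not. No other of the 10 genes had shSafb libraries so far apart. The gene (ENSMUSG00000034165; chromosome 17 from 47505051 to 47599691, plus strand) has 2 start sites in RefSeq, 88416 bases apart, and the table gives 1 value for both; it also shares 361 bases with Bysl on the opposite strand. The stretches before the start sites are shown because the 2 shSafb libraries cannot be compared start by start. They are RefSeq sequence on GRCm38.p6, plus strand, 5′ to 3′, without bases inside annotated exons, and capitals mark a GC box (GGGCGG) or a CCAAT box (CCAAT) on either strand.
Ccnd3 upstream start (chr17:47504801-47505050): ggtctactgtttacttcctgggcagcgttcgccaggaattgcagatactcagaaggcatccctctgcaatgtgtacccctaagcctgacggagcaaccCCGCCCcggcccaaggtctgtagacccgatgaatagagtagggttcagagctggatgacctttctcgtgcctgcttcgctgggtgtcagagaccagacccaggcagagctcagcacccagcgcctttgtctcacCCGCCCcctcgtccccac
Ccnd3 downstream start (chr17:47593217-47593435): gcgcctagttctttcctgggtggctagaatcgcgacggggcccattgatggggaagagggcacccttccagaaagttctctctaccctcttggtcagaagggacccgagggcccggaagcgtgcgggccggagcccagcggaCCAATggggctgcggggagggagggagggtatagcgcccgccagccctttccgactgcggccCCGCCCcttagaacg

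The D cyclin mRNAs summed to 499 and 474 TPM in the shSafb libraries, against 698 and 667 TPM in the shCtrl libraries. The make-up of that sum differed as well as its size. Ccnd2 held 15.9% and 16.6% of it in shSafb, against 26.9% and 25.7% in shCtrl. Ccnd1 held 75.6% and 79.9% in shSafb, against 69.7% and 71.1% in shCtrl, so it was the main D cyclin mRNA in all 4 libraries. Ccnd3 held 8.59% and 3.56% in shSafb, against 3.36% and 3.22% in shCtrl. The ratio of Ccnd1 to Ccnd2 was 4.77 and 4.83 in shSafb, against 2.59 and 2.76 in shCtrl. No test is given for shares and ratios, since an exact permutation of 2 against 2 libraries cannot go below p = 0.3333.

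**Figure D2:**
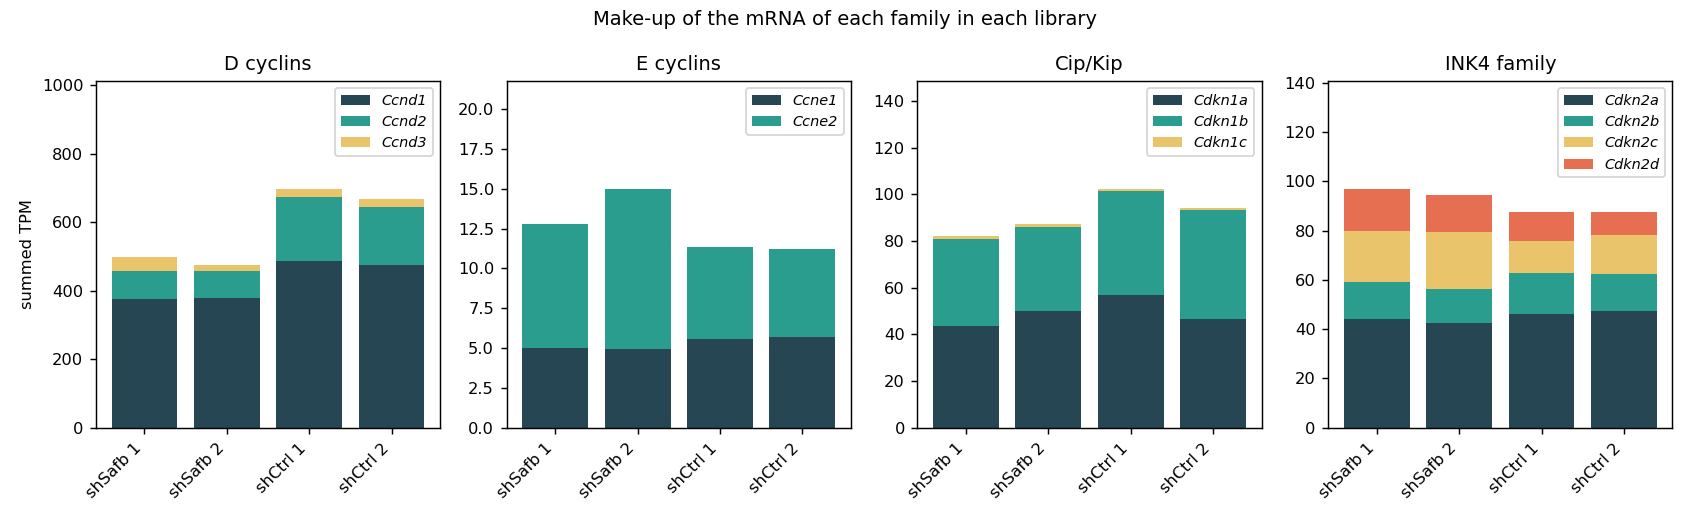
Summed TPM of 4 families in each library, with the shSafb libraries left of the shCtrl libraries in each panel and 1 colour per gene; the INK4 panel adds Cdkn2b and Cdkn2d. The D cyclin columns are lower in shSafb (499 and 474 TPM) than in shCtrl (698 and 667 TPM), mostly through the Ccnd1 and Ccnd2 segments, and the Ccne2, Cdkn2c and Cdkn2d segments are larger in shSafb.

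The E cyclins were much scarcer and did not move together. Ccne2, which encodes cyclin E2, had 7.80 and 10.1 TPM in the shSafb libraries, against 5.79 and 5.58 TPM in the shCtrl libraries. Both shSafb values lay above shCtrl but they also differed from each other by more than the groups' nearest values did. The log2 change was 0.59 ± 0.14 (SE; 1.57-fold higher; limma adjusted p = 0.0265). Leaving out shCtrl replicate 1 (adjusted p = 0.0936), shCtrl replicate 2 (0.0912) or shSafb replicate 2 (0.0759) ended the call, as it did when no filter on low values was used (0.0744). Ccne2 (chromosome 4 from 11191351 to 11204779, plus strand) shares 5622 bases with Ints8 on the opposite strand, which had 16.7 and 16.8 TPM in shSafb and 15.7 and 15.2 TPM in shCtrl.

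Ccne1, which encodes cyclin E1, had 4.99 and 4.92 TPM in the shSafb libraries, against 5.56 and 5.67 TPM in the shCtrl libraries. The values did not overlap and were lower in shSafb, but the change was not past the threshold (log2 change -0.13 ± 0.10, SE; 95% interval -0.38 to 0.12; limma adjusted p = 0.318). The ratio of Ccne2 to Ccne1 was 1.56 and 2.05 in shSafb, against 1.04 and 0.984 in shCtrl. Ccne2 made up 61.0% and 67.2% of the E cyclin sum in shSafb, against 51.04% and 49.6% in shCtrl. The gene lies on chromosome 7 from 38097984 to 38107534, minus strand, with no gene annotated over it on the opposite strand.

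Among the Cip/Kip inhibitors, Cdkn1b, which encodes p27, was the 1 called gene. It had 37.2 and 36.0 TPM in the shSafb libraries, against 44.4 and 46.7 TPM in the shCtrl libraries. The groups did not overlap, and the log2 change was -0.28 ± 0.07 (SE; 1.24-fold lower; limma adjusted p = 0.0286). It missed the threshold without shCtrl replicate 2 (adjusted p = 0.0810), shSafb replicate 1 (0.0876) or shSafb replicate 2 (0.122), and with a variance prior that did not follow abundance (0.0513). Its single RefSeq start site is on chromosome 6 at 134920401, plus strand. The 250 bases before it, on GRCm38.p6, are shown as the promoter of the called Cip/Kip gene, with the same marks as for Ccnd3, and hold 1 GC box and 2 CCAAT boxes.
Cdkn1b (chr6:134920151-134920400): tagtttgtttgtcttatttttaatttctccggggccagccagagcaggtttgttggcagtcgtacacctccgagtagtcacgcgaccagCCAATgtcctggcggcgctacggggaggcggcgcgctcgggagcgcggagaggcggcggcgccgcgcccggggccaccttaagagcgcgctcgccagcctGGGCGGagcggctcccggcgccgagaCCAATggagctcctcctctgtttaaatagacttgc

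Cdkn1a, which encodes p21, the inhibitor induced by p53, had 43.8 and 49.8 TPM in the shSafb libraries, against 57.0 and 46.4 TPM in the shCtrl libraries. The groups overlapped, and the log2 change was -0.11 ± 0.11 (SE; 95% interval -0.40 to 0.17; limma adjusted p = 0.444). It shares 1046 bases with AC167363.2 on the opposite strand, for which no value was used here. Cdkn1c, which encodes p57, an imprinted gene, was at the low end of what was tested, with 1.21 and 1.59 TPM in shSafb against 1.10 and 1.18 TPM in shCtrl. Both shSafb values lay above shCtrl, but the change was not past the threshold (log2 change 0.18 ± 0.16, SE; limma adjusted p = 0.408). Its antisense neighbour Gm44732 was at 0 in every library. The Cip/Kip sum was 82.2 and 87.4 TPM in shSafb, against 102 and 94.3 TPM in shCtrl. D cyclin mRNA per Cip/Kip mRNA was 6.07 and 5.42 in shSafb, against 6.81 and 7.07 in shCtrl, lower in both shSafb libraries.

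Cdkn2c, which encodes the INK4 protein p18, had 20.8 and 23.0 TPM in the shSafb libraries, against 13.2 and 15.9 TPM in the shCtrl libraries. Both shSafb values were above both shCtrl values. The log2 change was 0.59 ± 0.13 (SE; 1.51-fold higher; limma adjusted p = 0.0213). This call did not hold without shCtrl replicate 1 (adjusted p = 0.0510), shSafb replicate 1 (0.0552) or shSafb replicate 2 (0.0823), and with no filter on low values (0.0594). The gene lies on chromosome 4 from 109660876 to 109667189, minus strand.

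Cdkn2a yields an INK4 protein, p16, and, from another first exon, the p53 activator p19Arf. It had 44.0 and 42.6 TPM in the shSafb libraries, against 46.3 and 47.4 TPM in the shCtrl libraries. The values did not overlap, but the change was small and not past the threshold (log2 change -0.09 ± 0.06, SE; 95% interval -0.24 to 0.07; limma adjusted p = 0.294). Its start sites in RefSeq are 12427 bases apart on chromosome 4, minus strand, and 1 value covers both products, so p16 and p19Arf mRNA cannot be told apart here. The sequences before both starts are shown because they belong to different proteins. Capitals mark an E2F match (TTTGGCGC, TTTGCCGC, TTTCGCGC or TTTCCCGC on either strand), or a GC box. A GC box nearer the first start falls in bases not printed, and none of the motifs was found before the second.
Cdkn2a first start, p19Arf (chr4:89294654-89294869): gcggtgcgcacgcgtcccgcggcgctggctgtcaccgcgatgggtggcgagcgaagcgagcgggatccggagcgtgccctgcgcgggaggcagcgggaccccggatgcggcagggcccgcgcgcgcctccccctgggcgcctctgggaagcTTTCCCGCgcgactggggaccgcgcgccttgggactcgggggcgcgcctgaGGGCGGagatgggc
Cdkn2a second start, p16 (chr4:89282193-89282442): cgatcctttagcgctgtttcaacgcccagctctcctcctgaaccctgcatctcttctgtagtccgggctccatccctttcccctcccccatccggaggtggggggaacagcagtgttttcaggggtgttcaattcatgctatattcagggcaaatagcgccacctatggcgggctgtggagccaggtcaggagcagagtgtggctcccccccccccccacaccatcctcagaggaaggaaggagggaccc

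Sequences before 10 start sites of 6 of the 10 genes were in the RefSeq table. In the 250 bases before the start, an E2F match was found at 1 of the 10 sites, the p19Arf start of Cdkn2a, against 1.86% of 32851 mouse promoters. A GC box was found at 7 of the 10 sites, against 32.7% of promoters, and a CCAAT box at 2, against 33.8%. These matches are a description of the letters in those windows.

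**Figure D3:**
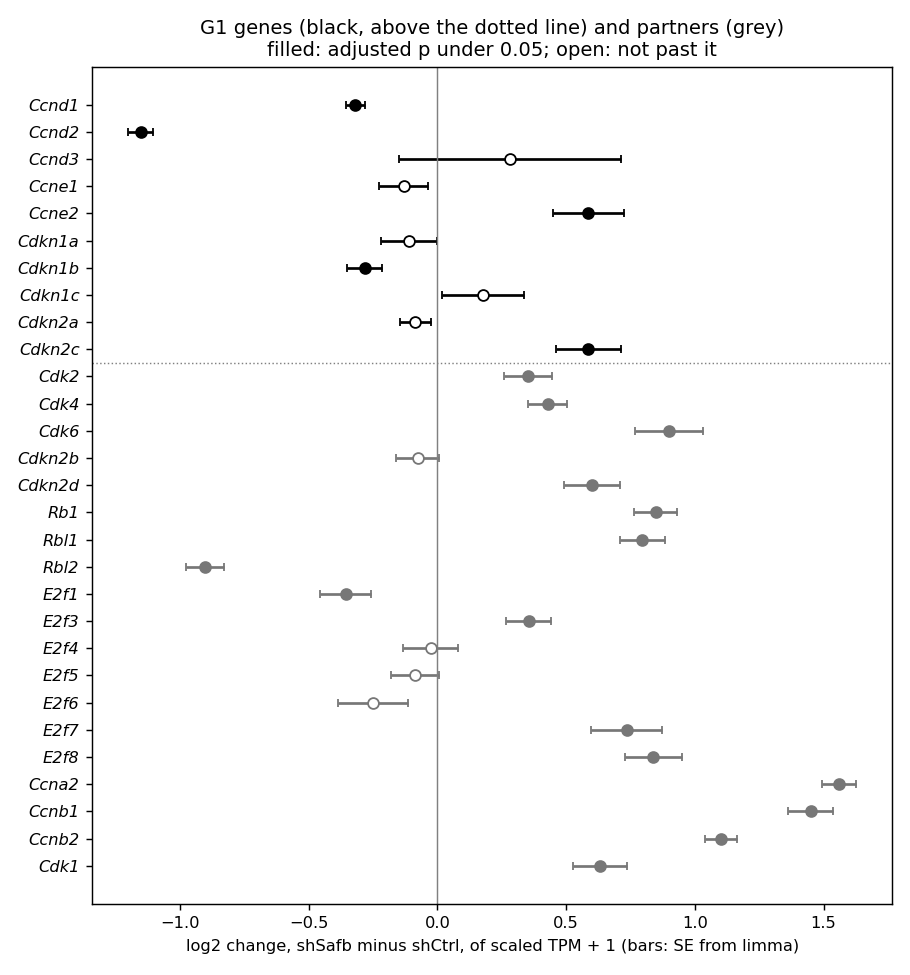
Log2 change (shSafb minus shCtrl, of scaled TPM + 1) of the 10 genes, in black above the dotted line, and of partner genes, in grey below it; bars are standard errors from limma, filled points have an adjusted p under 0.05 and open points do not. Ccnd2 (-1.15) lies farthest to the left, while Cdk4, Cdk6, Rb1 and the A and B cyclin genes lie to the right of 0.

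The kinases that D and E cyclins bind moved the other way from Ccnd1 and Ccnd2. Cdk4 had 209.9 and 226 TPM in shSafb against 158 and 171 TPM in shCtrl, with a log2 change of 0.43 ± 0.07 (SE; limma adjusted p = 0.0119). Cdk6 had 58.9 and 74.7 TPM in shSafb against 38.7 and 33.0 TPM in shCtrl (1.86-fold higher; limma adjusted p = 0.00726), and Cdk2 had 20.9 and 18.3 TPM in shSafb against 16.3 and 14.5 TPM in shCtrl (1.27-fold higher; limma adjusted p = 0.0373). D cyclin mRNA per Cdk4 and Cdk6 mRNA was thus 1.86 and 1.58 in shSafb, against 3.54 and 3.27 in shCtrl, and stayed above 1 in every library. The call of Cdk4 was lost without shSafb replicate 2 (adjusted p = 0.0515), and that of Cdk2 without shSafb replicate 1 (0.136), shCtrl replicate 1 (0.0805) or shCtrl replicate 2 (0.137). Of 11 genes of CDKs and their regulators, 8 rose and 1 fell, where 21.9% of all tested genes were higher and 22.4% lower, with a median log2 change of 0.43 against 0.0016 for all tested genes. Without 1 library 4 or 5 of them were higher and at most 1 lower (4 without shSafb replicate 2, 5 without each of the others).

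Of the phosphatases that activate CDKs, Cdc25c, which acts on CDK1 at mitosis, had 9.85 and 10.7 TPM in shSafb against 2.32 and 2.73 TPM in shCtrl (limma adjusted p = 0.00127). Cdc25b had 5.39 and 6.42 TPM in shSafb against 2.37 and 1.74 TPM in shCtrl (limma adjusted p = 0.00482). The list also holds inhibitory kinases. Wee1, named after its values were seen, had 7.43 and 6.94 TPM in shSafb against 9.18 and 7.37 TPM in shCtrl (limma adjusted p = 0.338). Pkmyt1, which inhibits CDK1, was one of the 8 that rose, with 5.47 and 5.11 TPM in shSafb against 3.31 and 2.48 TPM in shCtrl (limma adjusted p = 0.0149). Its call was lost without shSafb replicate 1 (0.0682) or shSafb replicate 2 (0.0509), and it was named after its values were seen. Cdc25a, which acts on CDK2 at the start of S phase, had 25.9 and 26.0 TPM in shSafb against 33.5 and 33.4 TPM in shCtrl (limma adjusted p = 0.0116), a call lost without shSafb replicate 1 (0.0618) or shSafb replicate 2 (0.0583). Of the INK4 genes outside the 10, Cdkn2d, which encodes p19Ink4d, rose to 17.0 and 15.2 TPM in shSafb, against 11.5 and 9.50 TPM in shCtrl (limma adjusted p = 0.0130; 0.0597 without shSafb replicate 1). Cdkn2b, which encodes p15, had 15.2 and 13.8 TPM in shSafb against 16.5 and 14.8 TPM in shCtrl (limma adjusted p = 0.497). Together the INK4 family genes Cdkn2a to Cdkn2d summed to 97.0 and 94.5 TPM in shSafb, against 87.4 and 87.6 TPM in shCtrl. That sum per Cdk4 and Cdk6 mRNA was 0.361 and 0.314 in shSafb, against 0.443 and 0.430 in shCtrl.

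The RB family, the target of these kinases, changed in both directions. Rb1 had 15.9 and 17.2 TPM in shSafb against 9.39 and 8.45 TPM in shCtrl (1.86-fold higher; limma adjusted p = 0.00268). Rbl1, which encodes p107, had 9.90 and 9.59 TPM in shSafb against 5.54 and 5.04 TPM in shCtrl (1.84-fold higher; limma adjusted p = 0.00344). Rbl2, which encodes p130, the RB relative most tied to quiescence, had 17.2 and 17.5 TPM in shSafb against 36.5 and 31.5 TPM in shCtrl (1.96-fold lower; limma adjusted p = 0.00180). The groups did not overlap for any of the 3.

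Among E2F genes, the late repressors E2f8 (4.29 and 4.24 TPM in shSafb, 1.996 and 1.96 TPM in shCtrl) and E2f7 (2.17 and 2.47 TPM in shSafb, 1.07 and 0.959 TPM in shCtrl) rose, with limma adjusted p of 0.00531 and 0.0142. E2f1, an activator, fell to 7.35 and 7.40 TPM in shSafb, against 10.8 and 9.03 TPM in shCtrl (limma adjusted p = 0.0433), and E2f3, another activator, rose to 8.72 and 9.17 TPM in shSafb, against 7.24 and 6.55 TPM in shCtrl (limma adjusted p = 0.0303). The third activator, E2f2, was too low to be tested, with 1.18 and 1.56 TPM in shSafb against 0.285 and 0.398 TPM in shCtrl. E2f4, E2f5 and E2f6 were not past the threshold (limma adjusted p = 0.865, 0.477 and 0.199). Of 17 tested genes of the RB family, E2F, DP and the MuvB core, 6 rose and 3 fell (median log2 change -0.03), against 21.9% higher and 22.4% lower of all tested genes. The call of E2f3 was lost without any 1 library (0.0703 without shCtrl replicate 1 to 0.123 without shSafb replicate 2). That of E2f1 was lost without shCtrl replicate 1 (0.134), shSafb replicate 1 (0.1399) or shSafb replicate 2 (0.134). That of E2f7 was lost without shCtrl replicate 1 (0.0559), shCtrl replicate 2 (0.0617) or shSafb replicate 2 (0.0656). With 1 library left out the list held 3 to 5 higher and 1 or 2 lower, the 3 without shCtrl replicate 1 and the 1 without either shSafb replicate.

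The A and B cyclin genes that act after G1, with Ccnf and Cdk1, rose in 5 of 5 tested cases, against 21.9% higher of all tested genes. Their median log2 change was 1.30. Ccna2, which encodes cyclin A2, had 34.1 and 35.6 TPM in shSafb against 11.4 and 11.4 TPM in shCtrl. Ccnb1, which encodes cyclin B1, had 35.6 and 35.5 TPM in shSafb against 12.0 and 13.3 TPM in shCtrl. Ccnb2 (limma adjusted p = 8.63e-04) and Ccnf (0.00200) were 1.10 and 1.30 higher on the log2 scale. The sum of D cyclin mRNA over that of Ccna2, Ccnb1 and Ccnb2 was 4.52 and 4.16 in shSafb, against 16.1 and 15.4 in shCtrl. All 5 calls held without any 1 library. Ccna1 and Ccnb3, which work mainly in the germ line, were at 0 in every library.

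Of 20 proliferation markers 15 rose and 1 fell (median log2 change 0.58), against 21.9% higher and 22.4% lower of all tested genes. Fewer of the markers were called higher when any 1 library was left out. Mki67, a marker of cycling cells, with 15.9 and 15.5 TPM in shSafb against 5.29 and 4.37 TPM in shCtrl, and Plk1, a mitotic kinase gene, with 19.8 and 21.7 TPM in shSafb against 7.76 and 7.64 TPM in shCtrl, both rose (limma adjusted p = 0.00105 and 9.34e-04). So did Top2a and Aurka, by 1.30 and 1.17 on the log2 scale. Pcna, the sliding clamp of DNA replication, was the 1 that fell, with 97.2 and 94.1 TPM in shSafb against 136 and 137 TPM in shCtrl (limma adjusted p = 0.00289). The 4 markers not called were Cdt1, Mcm6, Mcm3 and Tk1. Cdt1 and Mcm6 lay lower in both shSafb libraries (log2 change -0.54 and -0.17, limma adjusted p = 0.125 and 0.0969). Mcm3 and Tk1 lay slightly higher (0.14 and 0.10, limma adjusted p = 0.128 and 0.164). Pcna and these 4 were chosen for mention after their values were seen. Set beside the proliferation markers, the G1 genes gave no common direction, with a median log2 change of -0.10. Since they pool cyclins with inhibitors, which act in opposite ways, that median cannot show whether they fit the rise. The calls were also mixed within each class. Among the cyclins Ccnd1 and Ccnd2 were lower and Ccne2 higher, and among the inhibitors Cdkn1b was lower and Cdkn2c higher.

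**Figure D4:**
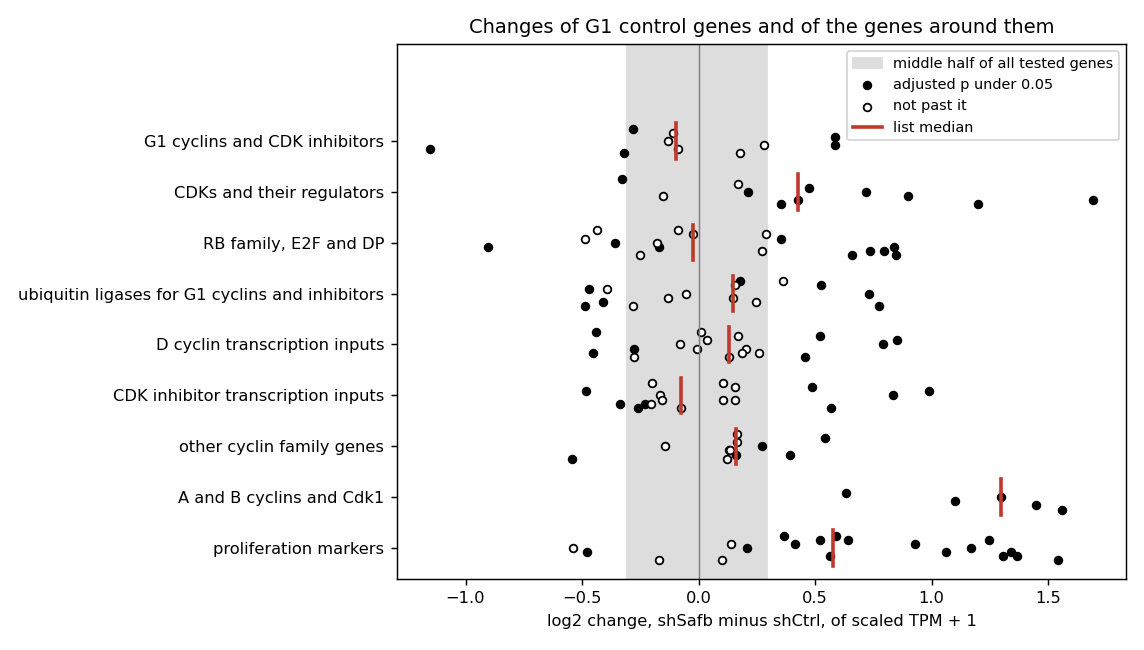
Log2 change (shSafb minus shCtrl, of scaled TPM + 1) of each tested gene by list, filled where the adjusted p is under 0.05 and open where it is not, with a red line at each list's median and a grey band between the quartiles of all tested genes (-0.31 to 0.29). The G1 cyclins and CDK inhibitors lie on both sides of 0 (median -0.10), while all A and B cyclin genes and Cdk1 lie to the right (median 1.30).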

How the data were processed

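RNA depleted of ribosomal RNA was made into strand-specific libraries, per the labels' protocols. The mm10 build and the tools HISAT2, HTSeq, StringTie and DESeq2 are named, without versions or roles, per the submitters' processing notes. The annotation release and any use of strand when reads were assigned to genes are not given, so values of genes overlapping on opposite strands are uncertain. The values are the TPM the authors deposited, 1 per gene and library, and they keep no depth. Small RNA genes held 29.9% (shCtrl 1) to 31.9% (shCtrl 2) of the TPM total of a library. The table has 52200 rows; values of the 6 identifiers that recur were added up. Positions come from GENCODE mouse release 21 (GRCm38, which is mm10), and promoter sequences from RefSeq (GRCm38.p6).

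Each library was scaled by its median ratio to the geometric mean of the tested genes (factors 0.991 to 1.031). log2(scaled TPM + 1) of the 13111 genes with a mean of at least 1 TPM was fitted with limma 3.58.1 in R 4.3.3 (group only, trended empirical Bayes, 2 residual degrees of freedom), two-sided, and p-values were Benjamini-Hochberg adjusted over all of them. Log2 changes are shSafb minus shCtrl on that scale and understate changes of low genes, while folds are ratios of mean deposited TPM. The script was tested on simulated data. The rest used Python 3.11.15 with matplotlib 3.10.9, numpy 2.4.6 and pandas 2.3.3.

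Genes named outside the 10 are a fixed set of direct partners and, of each list, up to 4 with the smallest p, unless marked as chosen later; markers at 0, Csf1r, Sox9 and Cftr were named after their values were seen. The 10 genes and the lists were chosen with earlier results of these data known. Alternatives covered the pseudocount, filter, scaling, variance prior, a replicate block, a fold threshold, leaving out small RNA and mitochondrial genes, and leaving out each library.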

Additional observations from a re-analysis of the deposited data

How the results depend on the processing

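Of the 10 genes, Ccnd1 and Ccnd2 kept their calls in every alternative refitted, over adjusted p of 0.00303 to 0.0336 and 4.39e-04 to 0.00891. The calls of Ccne2, Cdkn1b and Cdkn2c kept their direction but not the threshold in 4, 5 and 4 of 14 alternatives, over adjusted p of 0.0216 to 0.0936, 0.0163 to 0.122 and 0.0129 to 0.0823. The log2 change of Ccnd3 was -0.36 without shSafb replicate 1 and 0.94 without shSafb replicate 2. In the latter fit Ccnd3 was the gene of the 10 called higher, and Ccne2 and Cdkn2c were not called. With 1 library left out, 0 to 1 of the 10 were called higher and 2 to 3 lower, the 0 being without shCtrl replicate 1, and 1768 to 2124 of all genes were higher and 1961 to 2186 lower. The 1768 was without shSafb replicate 1, and 1814 were higher without shSafb replicate 2. With no filter on low values 0 of the 10 were higher. When a fold of 1.5 or more was asked for as well, 1303 genes were higher, 1408 lower and 1 of the 10 lower, by the construction of that rule. The labels give both groups replicates 1 and 2, but same-numbered libraries did not deviate together over all genes (correlation -0.064 for replicate 1). With 2 libraries a group the deviations of replicate 2 mirror those of replicate 1, so the other pair adds nothing. The main fit was set to group only and had no block. Whether same-numbered libraries shared a batch is not in the labels and was not tested. A replicate block left 2 of the 10 higher and 2 lower, with 2540 genes higher and 2686 lower and Cdkn1b at an adjusted p of 0.0541. Cdkn1c was not tested at a mean TPM of at least 5. The cause of these differences was not tested. With 2 libraries a group and unknown depth, a change that was not called is not shown to be absent.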

Other observations

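Another list held ubiquitin ligase genes that mark G1 cyclins and inhibitors for destruction, and related genes such as Cks2. Its genes were called about as often as all tested genes (44.3%): by limma 4 of 15 were higher in shSafb and 3 lower (median log2 change 0.15). Cul1, the scaffold of the SCF ligases, had 103 and 95.6 TPM in shSafb against 136 and 145 TPM in shCtrl (limma adjusted p = 0.00848; named after its values were seen), and Fbxo31, an F-box gene for cyclin D1, had 26.0 and 26.1 TPM in shSafb against 37.6 and 33.7 TPM in shCtrl (adjusted p = 0.00808). Fbxo4, another F-box gene, had 28.4 and 27.2 TPM in shSafb against 42.5 and 37.9 TPM in shCtrl (adjusted p = 0.00600). Cul4b rose to 83.0 and 85.3 TPM in shSafb, against 61.8 and 56.6 TPM in shCtrl, and Cks2 to 39.1 and 39.7 TPM in shSafb, against 25.8 and 21.9 TPM in shCtrl. Skp2, the F-box gene for p27, had 4.21 and 5.20 TPM in shSafb against 3.83 and 3.89 TPM in shCtrl (adjusted p = 0.187), and Fbxw7, the F-box gene for cyclin E, had 6.39 and 5.62 TPM in shSafb against 5.04 and 4.05 TPM in shCtrl (adjusted p = 0.0772). Cks1b (adjusted p = 0.386) and Ambra1 (0.173), whose product directs D cyclin breakdown, were not past the threshold either. With 1 library left out 2 to 5 of these genes were higher and 3 lower: 2 without either shSafb replicate and 5 without shCtrl replicate 2.

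Transcription factors that feed the D cyclin genes included 4 higher and 3 lower of 17 (median log2 change 0.13), also close to the 44.3% of all tested genes called in either direction. Myc had 21.4 and 23.9 TPM in shSafb against 17.6 and 15.5 TPM in shCtrl (limma adjusted p = 0.0161), and missed the threshold if shCtrl replicate 2 (0.0649) or shSafb replicate 2 (0.0667) was dropped. Junb had 1177 and 1155 TPM in shSafb against 679.6 and 691 TPM in shCtrl, and Mxd4, a MYC antagonist gene, had 318 and 316 TPM in shSafb against 225 and 224 TPM in shCtrl. Stat5a fell by 0.45 on the log2 scale (adjusted p = 0.0118; 0.0504 if shCtrl replicate 1 and 0.0617 if shSafb replicate 1 was dropped). With 1 library left out 2 to 4 were higher and 0 or 1 lower, the 2 without shCtrl replicate 2 and the 0 without shCtrl replicate 1 or shSafb replicate 1. Of 17 inputs to the inhibitor genes 4 were higher and 4 lower (median -0.08), again near that share. Foxo3, a forkhead factor that induces Cdkn1b, had 30.4 and 31.2 TPM in shSafb against 45.4 and 42.9 TPM in shCtrl (adjusted p = 0.00345). Klf6 had 308 and 309 TPM in shSafb against 162 and 153 TPM in shCtrl, and Ezh2, a Polycomb methyltransferase that silences Cdkn2a, had 46.7 and 45.3 TPM in shSafb against 33.9 and 28.7 TPM in shCtrl. Trp53, the p53 gene, had 41.9 and 40.5 TPM in shSafb against 47.8 and 40.9 TPM in shCtrl (adjusted p = 0.452). Without shSafb replicate 1 these were 3 higher and 2 lower, and without shSafb replicate 2 they were 3 and 1. Of 11 other cyclin genes 4 were higher and 1 lower (median 0.16), near the same share, and with 1 library left out 1 to 3 were higher (1 without shSafb replicate 2, 2 without either shCtrl replicate), and 0 or 1 lower, the 1 without shCtrl replicate 2. Ccnt1, a cyclin of transcription elongation, had 43.0 and 44.7 TPM in shSafb against 34.0 and 33.5 TPM in shCtrl (adjusted p = 0.00641).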
